A study of Mus musculus with 8 samples.

Results

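The genes described here are Myc, the cyclin-dependent kinase (CDK) inhibitor genes Cdkn2b, Cdkn1a, Cdkn1b and Cdkn1c, the D-type cyclin genes Ccnd1 and Ccnd2, and Gas1, a growth arrest gene. They were taken as every probe set that the platform annotation gives to 1 of these 8 symbols alone, which gave 20 of 45037 probe sets on the array, whose annotation names 18193 genes, and 18 of the 20 were bright enough to be tested. The study asked how mouse epithelial cells induced towards epithelial-mesenchymal transition (EMT) differ from cells that were not. EpH4 and NMuMG are mammary gland epithelial lines and mProx and MCT are renal tubular ones, mProx being labelled proximal. All 4 lines spent 24 h in K-1 medium, which contains insulin and transferrin, and then another 24 h in it with or without rhTGF-b1 at 3 ng/mL and rhEGF at 3 ng/mL. Each line gave 1 resting and 1 stimulated array, so a change within a line has no replicate check, and the lines are the only replicates. The labels mark EpH4 as resistant to EMT, and they do not say how many cultures lie behind an array.

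TGF-β stops many epithelial cells in the G1 phase of the cell cycle, a response classically made of repression of Myc and induction of the CDK inhibitors p15 (Cdkn2b) and p21 (Cdkn1a). CDK inhibitors bind the cyclin-CDK complexes that phosphorylate the retinoblastoma protein, whereas D-type cyclins activate those complexes. Growth factors such as EGF act the other way through the ERK pathway and are known to induce Myc and Ccnd1. Here both signals were given together, so these arrays do not separate them.

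Levels are log2 values after quantile normalization, on a scale that ends at 13.71, and a level under 5.27 is called dim. Signals of the arrays as deposited were on different scales, with medians from 41.5 to 59.6. Without normalization the median change over all probe sets tested was 0.32 in NMuMG and -0.29, -0.24 and -0.11 in EpH4, MCT and mProx, and changes are given relative to these shifts. Markers followed the labelled tissue only in part. The epithelial marker Cdh1 was at 10.06 to 11.84 in the mammary lines but dim on all 4 kidney arrays (3.53 to 4.47), where the kidney markers Cdh16 and Pax8 were at 8.99 to 12.23. The epithelial keratin Krt18 was at 9.01 or more on all 8 arrays, but Krt8 was at 5.82 and 6.48 in MCT. Krt19 was dim in EpH4 (4.52 and 4.78), and Epcam was dim in NMuMG (3.90 and 3.95) and mProx (4.12 and 4.61). The epithelial marker Cldn4 ranged from 5.31 in resting mProx to 12.55 in stimulated EpH4. The proximal tubule genes Lrp2, Cubn, Slc34a1 and Slc5a2 were at 4.35 to 6.67 in all 4 lines, and Aqp1 was at 12.84 and 11.23 in mProx and dim in MCT. The milk protein genes Csn2 and Wap were at 5.96 or less on every array. Resting mProx also had high signals of a few genes known from stroma and macrophages. Of 8 fibroblast markers 6 were above the dim level on both mProx arrays, but also on stimulated NMuMG. The number was 5 on both EpH4 arrays, 4 on resting NMuMG and 2 on both MCT arrays. In mProx the summed deposited signal of the 8 was 2288.6 at rest and 608.8 after stimulation. On the 6 arrays of the other lines it was 207.4 to 624.8. Of these markers Dcn was at 10.56 and 7.53 and Lum at 7.39 and 4.73 in mProx, whereas Col1a1 and Thy1 were dim in resting mProx and Pdgfra was at 5.32. The leukocyte markers, 5 in number, summed to 2326.0 and 429.4 in mProx, against 263.5 to 464.6 elsewhere, and of these Csf1r was at 10.91 and 7.63. The macrophage genes Cd68 and Adgre1 were at 6.40 and 5.57 in resting mProx, within or below their range elsewhere, and the defining leukocyte gene Ptprc was dim on all 8 arrays. The part of these genes in the values of mProx was not tested. In RNA from whole cultures, fewer cells of a type and less RNA per cell cannot be told apart.

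Promoters are shown for the CDK inhibitors and the growth arrest gene that were highest or lowest against rest in the kidney lines. Promoter sequences of GRCm38.p6 were at hand for 4 of the 8 genes. Each sequence is the 250 bases before an annotated start, 5′ to 3′ on the strand of the gene. Capitals mark the core of the SMAD-binding element (CAGAC, or GTCTG on the other strand) and the GC box (GGGCGG, or CCGCCC on the other strand), which binds Sp1-family factors.

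Cdkn2b, chr4:89311033-89311282, strand -: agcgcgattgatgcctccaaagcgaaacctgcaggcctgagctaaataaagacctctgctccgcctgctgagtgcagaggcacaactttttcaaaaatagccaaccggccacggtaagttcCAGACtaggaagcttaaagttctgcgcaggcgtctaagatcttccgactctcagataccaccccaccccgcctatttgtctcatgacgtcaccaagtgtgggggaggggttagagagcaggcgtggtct
Cdkn1a, upstream start, chr17:29090729-29090978, strand +: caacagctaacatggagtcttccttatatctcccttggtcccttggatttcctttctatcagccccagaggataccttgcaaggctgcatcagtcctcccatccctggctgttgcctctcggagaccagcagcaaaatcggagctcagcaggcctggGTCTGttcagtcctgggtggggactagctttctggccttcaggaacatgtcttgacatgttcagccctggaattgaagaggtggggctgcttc
Cdkn1a, downstream start, chr17:29093519-29093768, strand +: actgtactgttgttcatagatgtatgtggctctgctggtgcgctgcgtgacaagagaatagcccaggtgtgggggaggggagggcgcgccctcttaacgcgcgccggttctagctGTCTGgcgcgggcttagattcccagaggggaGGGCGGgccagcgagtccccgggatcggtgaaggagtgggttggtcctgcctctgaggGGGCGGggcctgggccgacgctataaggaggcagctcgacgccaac
Gas1, chr13:60177536-60177785, strand -: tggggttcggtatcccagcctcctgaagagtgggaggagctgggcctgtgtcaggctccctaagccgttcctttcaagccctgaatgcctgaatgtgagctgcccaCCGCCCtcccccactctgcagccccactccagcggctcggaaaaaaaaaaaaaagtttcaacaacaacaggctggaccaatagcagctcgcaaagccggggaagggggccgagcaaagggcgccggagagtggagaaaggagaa

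Cdkn2b held 1 SMAD core, starting 129 bases before its start site. Each Cdkn1a window held 1 as well, at 93 bases before the upstream and 135 before the downstream start, and the downstream window also held 2 GC boxes, at 104 and 46 bases. Gas1 held 1 GC box, at 144 bases, and its window does not hold the SMAD core letters. Both motifs are short and common: among all 32851 promoter windows of this length, 42.2% held the SMAD core and 32.7% the GC box. These matches are descriptions of letters, not of binding.

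Myc, the transcription factor that drives ribosome production and entry into the cell cycle, has 1 probe set (1424942_a_at). Its resting level was 8.56 in mProx, 9.44 in MCT, 10.53 in NMuMG and 11.81 in EpH4. After stimulation it was 10.27, 11.01, 10.74 and 11.74. The kidney lines were the 2 lowest at rest. The level after stimulation was 3.29-fold that at rest in mProx, 2.97-fold in MCT, 1.16-fold in NMuMG and 0.950-fold in EpH4. On the deposited scale the signal was 447 and 1281.5 in mProx and 689.9 and 1766.3 in MCT, and in NMuMG it was 1060.4 and 1617.1, a log2 change of 0.60 as deposited. Over the 4 lines the log2 change was 0.86 ± 0.92 (SD, n = 4), which did not pass limma's test (adjusted p = 0.345). The lowest of the 4 changes was -0.07, in EpH4, and -0.29 there on the values as deposited.

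Cdkn2b (1449152_at) encodes p15, an inhibitor of CDK4 and CDK6 of the INK4 family. The 2 kidney lines had nearly the same levels, 9.02 in mProx and 9.20 in MCT at rest and 10.57 and 10.58 after stimulation, which is 2.93-fold and 2.61-fold higher. In NMuMG the level was already above all kidney arrays at rest, at 11.63, and was 11.78 after stimulation. EpH4 was dim on both arrays, at 4.10 and 3.73, with deposited signals of 8.0 and 2.7. A rise from that level could have been seen, but a fall could not. The change over the 4 lines was 0.68 ± 0.94 (SD, n = 4; limma adjusted p = 0.457), and 0.40 to 1.03 with 1 line left out, lowest without mProx.

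Cdkn1a encodes p21, which inhibits CDK2 complexes and is also a p53 target. By its brighter probe set (1424638_at) the level was 9.76, 11.49, 11.54 and 12.17 at rest in mProx, MCT, NMuMG and EpH4, and 11.75, 12.35, 11.10 and 12.15 after stimulation. It was higher 3.99-fold in mProx and 1.81-fold in MCT, at 0.991-fold in EpH4 and at 0.737-fold in NMuMG. The dimmer probe set (1421679_a_at) shared all 4 directions, with log2 changes of 2.07, 1.47, -0.49 and -0.59 in mProx, MCT, EpH4 and NMuMG. Both probe sets thus had positive values in the kidney lines and negative ones in the mammary lines. The EpH4 value of the brighter one was only -0.01, and 0.05 with median scaling. The 4-line response was 0.60 with an SE of 0.33 (limma adjusted p = 0.546) for the brighter and 0.62 with an SE of 0.42 (adjusted p = 0.623) for the dimmer one. Without mProx the brighter probe set gave 0.14.

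Cdkn1b encodes p27, a CIP/KIP inhibitor usually abundant in resting cells. Its bright probe set (1434045_at) was lower after stimulation in all 4 lines, going from 10.52 to 9.79 in mProx, from 9.38 to 8.90 in MCT, from 10.05 to 9.89 in NMuMG and from 11.18 to 10.72 in EpH4. A negative value in each of the 4 lines was found for 9% of all probe sets tested. The mean was -0.45 with an SE of 0.11 (limma adjusted p = 0.243). On the values as deposited, NMuMG was at 0.22 in place of -0.16. The other probe set (1419497_at), with levels of 5.16 to 7.07, went the other way in mProx, MCT and EpH4, with values of 0.41, 0.68 and 0.32, and was at -0.69 in NMuMG, so the 2 probe sets disagree.

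Cdkn1c (1417649_at), which encodes p57, a CIP/KIP inhibitor of growing tissues, was near the bottom of the scale. It was dim on all 4 mammary arrays, from 3.72 to 4.80, and at 5.94 to 7.35 on the kidney arrays. It passed the filter on low values only through the kidney lines, and its tissue difference supports nothing here. Its log2 changes were -0.39 in mProx and 0.79 in MCT, of opposite sign, and the 4-line mean of 0.04 turned to -0.05 on the values as deposited.

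**Figure D1:**
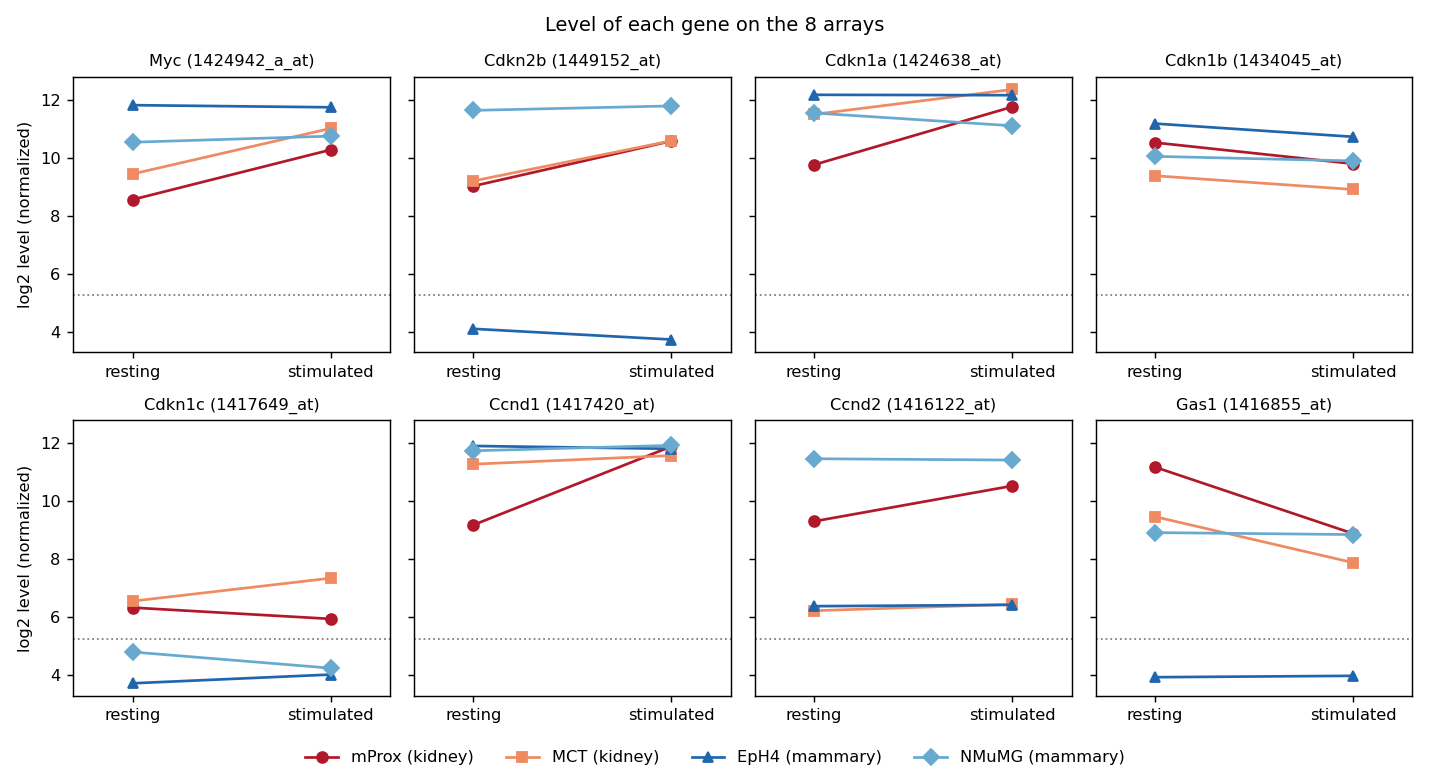
Normalized log2 level (vertical axis) of each gene's main probe set at rest and after 24 h of stimulation (horizontal axis), 1 array per point, with lines joining the 2 arrays of a cell line and the dotted line at the dim level of 5.27. Myc, Cdkn2b and Cdkn1a slope upwards in mProx and MCT and are nearly flat or slope down in EpH4 and NMuMG, Gas1 slopes down in the kidney lines, and Ccnd1 meets in all 4 lines at 11.57 to 11.92 after stimulation.

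Ccnd1 encodes cyclin D1, the growth-factor-induced partner of CDK4 and CDK6. By its main probe set (1417420_at) resting mProx stood apart at 9.18, against 11.27 in MCT, 11.74 in NMuMG and 11.90 in EpH4. After stimulation the 4 lines were at 11.89, 11.57, 11.92 and 11.80, so that the SD between lines was 1.26 at rest and 0.16 after stimulation. The change was thus 6.53-fold in mProx and between 0.934-fold and 1.23-fold elsewhere. The other 2 probe sets gave 6.20-fold and 8.71-fold in mProx and 1.21-fold and 1.46-fold in MCT. The 4-line response of 0.77 with an SE of 0.39 (limma adjusted p = 0.520) rests on mProx, and without that line it was 0.13.

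Ccnd2, cyclin D2, has 7 probe sets, of which 6 were tested. By the brightest (1416122_at) it was at 11.46 and 11.42 in NMuMG and at 9.30 and 10.53 in mProx, but at only 6.22 and 6.45 in MCT and 6.38 and 6.43 in EpH4. The order of the lines therefore cut across the tissues. In mProx all 7 probe sets were higher after stimulation, by 0.66 to 1.28 on the log2 scale. In MCT they disagreed: 1430127_a_at was at -2.03 and 1455956_x_at at -0.87, while the other 5 lay between -0.21 and 0.22. For 1430127_a_at the MCT signal went from 57.6 to 5.2 on the deposited scale, from just above the dim level to below it, whereas the main probe set was at 65.0 and 64.2. In NMuMG the 7 values lay between -0.15 and 0.06. The small values of the main probe set in EpH4, MCT and NMuMG each change sign on the deposited scale, so no direction is given for those lines.

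Gas1 is a membrane protein made in arrested cells and lost when they enter the cycle, and Myc is known to repress it. Its level (1416855_at) was 11.17 in resting mProx, 9.46 in MCT, 8.92 in NMuMG and 3.93, dim, in EpH4. After stimulation it was 8.88, 7.88, 8.85 and 3.98. The log2 change was thus -2.29 in mProx and -1.58 in MCT, with -0.07 in NMuMG and 0.05 in EpH4, and the signs of the last 2 turn on the deposited scale. EpH4 could not have shown a fall. The second tested probe set gave -1.78, -1.38, -0.28 and -0.55 in the same order of lines, the NMuMG value turning to 0.06 as deposited. Its EpH4 levels were dim as well, at 4.73 and 4.18. The third, 1456322_at, was too dim to be tested. The 4-line response was -0.97 with an SE of 0.37 (limma adjusted p = 0.388), and -0.995 with an SE of 0.25 (adjusted p = 0.242) for the second probe set. The main probe set gave -0.54 without mProx and -1.31 without EpH4.

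**Figure D2:**
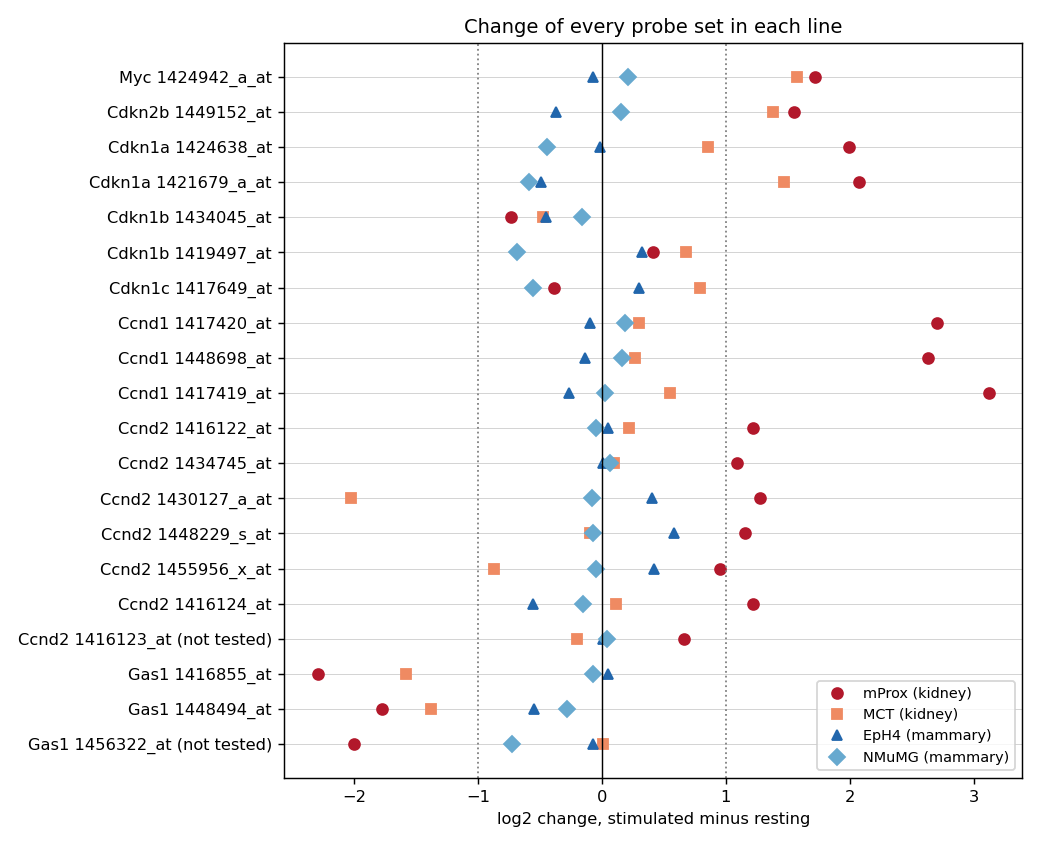
Log2 change, stimulated minus resting (horizontal axis), of all 20 probe sets (rows) in each line, 1 point per line, with dotted lines at 2-fold. The kidney lines mProx and MCT lie to the right for Myc, Cdkn2b and Cdkn1a and to the left for both tested Gas1 probe sets, while all 3 Ccnd1 and 5 of the 7 Ccnd2 probe sets are past 2-fold upwards in mProx and in no other line.

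Counted over the 18 tested probe sets, 12 were at least 2-fold higher and 2 at least 2-fold lower in mProx, against 2.77% and 2.65% of all probe sets. In MCT 3 were higher and 3 lower, against 2.92% and 2.7%. In EpH4 and NMuMG the counts were 0 in both directions, against 1.45% higher and 1.58% lower in EpH4 and 3.07% and 3.52% in NMuMG. The median change of the 18 was 1.22 in mProx, 0.25 in MCT, -0.04 in EpH4 and -0.07 in NMuMG, beside medians over all probe sets of 0.01, -0.01, -0.01 and 0.04. Probe sets of a gene measure the same transcripts, so the 11 of Ccnd1, Ccnd2 and Gas1 weigh heavily in these counts. In the response over the 4 lines, limma called 0 of the 18, as it called 0 of 27022, or 0%, and 4 of the 18 had an unadjusted p under 0.05, against 11% of all. Those 4 were Myc, the bright Cdkn1b probe set and both tested Gas1 probe sets. With 4 lines an exact paired permutation test cannot go below p = 0.125.

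Whether the response of these genes differed between kidney and mammary lines was tested as a difference of changes. Kidney minus mammary, the log2 change differed by 1.58 with an SE of 0.19 for Myc (95% interval 1.13 to 2.02), by 1.58 with an SE of 0.27 for Cdkn2b and by 1.65 and 2.31, with SEs of 0.33 and 0.27, for the 2 Cdkn1a probe sets. For Gas1 the difference was -1.93 with an SE of 0.33 and -1.16 with an SE of 0.31. EpH4, where both of these Gas1 probe sets were dim, had little or no room to fall. Without EpH4 the main Gas1 probe set gave -1.87. Ordered by unadjusted p among 27022 probe sets, the dimmer Cdkn1a probe set was at rank 1, Myc at rank 2, Gas1 at rank 14, Cdkn2b at rank 17 and the brighter Cdkn1a probe set at rank 47. No probe set passed limma's test of this difference after Benjamini-Hochberg adjustment, the smallest adjusted p being 0.456, for Cdkn1a and Myc, and Cdkn2b and Gas1 had 0.577. At an unadjusted p under 0.05 were 9 of the 18 probe sets, against 5.5% of all. These 9 belong to Myc, Cdkn2b, Cdkn1a, Ccnd1 and Gas1 only. The members were chosen with earlier results of these data known, so their ranks and counts, here and elsewhere, are not independent support.

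Both kidney changes lay above both mammary changes in 11 of the 18 probe sets, against 16.5% of all, and below them in 3, against 17.8%. By main probe set this holds upwards for 5 genes (Myc, Cdkn2b, Cdkn1a, Ccnd1 and Ccnd2) and downwards for Cdkn1b and Gas1. Over all 12697 genes tested it held upwards for 1968 and downwards for 2401. As deposited, neither Ccnd1 nor Ccnd2 separates, with MCT at 0.13 and -0.02 below NMuMG at 0.57 and 0.30. Nor do their other probe sets counted here. With median scaling Ccnd1 does not separate either, at 0.34 in MCT and 0.40 in NMuMG. Cdkn1b separates only narrowly, at -0.47 in MCT against -0.46 in EpH4, and its other probe set lies upwards. The Ccnd2 probe sets 1430127_a_at, 1448229_s_at and 1455956_x_at lie neither way. At least 2-fold higher in both kidney lines and under 2-fold in both mammary lines were 3 of the 18 (Myc, Cdkn2b and the dimmer Cdkn1a probe set), against 0.315% of all probe sets. In the mirrored direction were 2, both of Gas1, against 0.255%. Gas1 was dim in EpH4, which could hardly have shown a 2-fold fall, so for that line this pattern was largely set in advance. Values above 0 in both kidney lines and below 0 in both mammary lines were found for 3 of the 18, both of Cdkn1a and 1 of Ccnd2, against 4.94%, and the mirrored pattern for 0, against 5.78%. The brighter Cdkn1a probe set was at only -0.01 in EpH4, and that Ccnd2 probe set was dim in MCT and EpH4. Of 1 sign in all 4 lines were 1 upwards, a Ccnd2 probe set, against 10.1%, and 2 downwards, Cdkn1b and the second Gas1 probe set, against 9%. That Gas1 probe set was dim on both EpH4 arrays, and its NMuMG value turns to 0.06 as deposited. The Ccnd2 probe set of 1 sign, 1434745_at, was at only 0.0045 in EpH4 and was dim on both MCT arrays. As deposited it was at -0.26 in EpH4 and -0.03 in MCT. Ccnd1 differed by 1.46 with an interval of 0.03 to 2.89 (limma adjusted p = 0.898), and MCT was nearer to the mammary lines than to mProx. For Ccnd2 the interval ran from -0.09 to 1.53, for Cdkn1b from -0.79 to 0.20 and for Cdkn1c from -1.06 to 1.72, so differences of either sign remain within them.

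Leaving out a kidney line leaves 1 line for the kidney, which is then assumed to vary like the mammary lines. Without MCT limma called 69 probe sets, among them Myc (adjusted p = 0.0247), Cdkn1a (0.00448) and Ccnd1 (0.00155). Without mProx it called 28 but none of the main probe sets of these genes, with adjusted p of 0.0516 for Myc, 0.167 for Cdkn1a and 0.943 for Ccnd1. The Ccnd1 difference was 2.66 without MCT and 0.26 without mProx, whereas that of Myc was 1.65 and 1.52. Tissue cannot be told apart here from any other feature that the 2 kidney lines share.

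**Figure D3:**
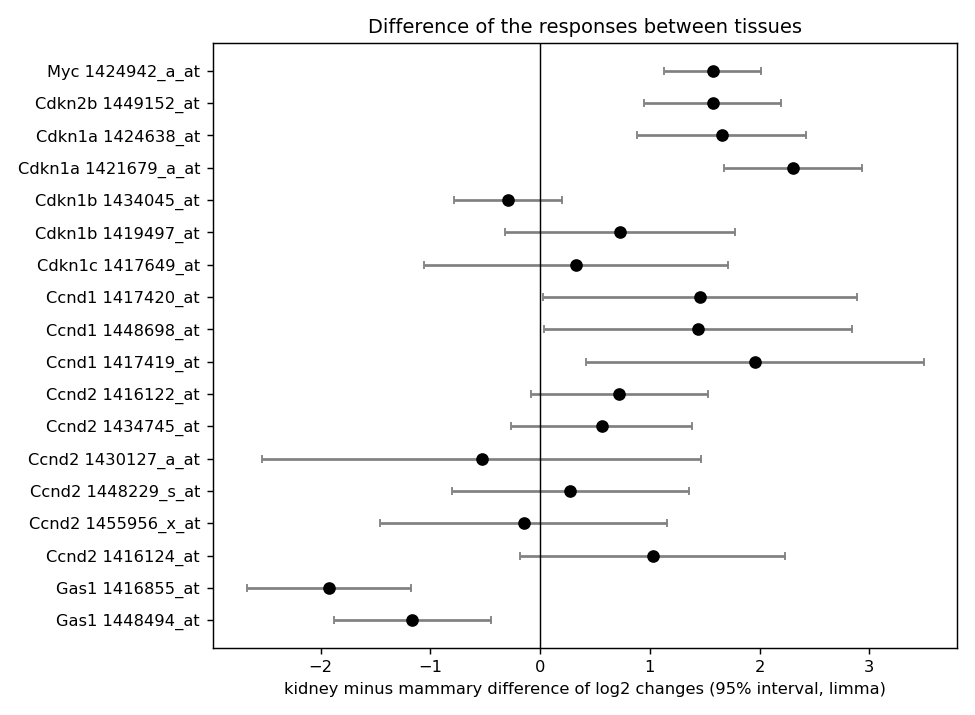
Difference of the log2 changes, kidney minus mammary (horizontal axis), for the 18 tested probe sets (rows), with limma's 95% intervals, which are not adjusted for the number of probe sets. Intervals of Myc, Cdkn2b, both Cdkn1a and both Gas1 probe sets lie away from 0, those of Ccnd1 just clear it, and those of Cdkn1b, Cdkn1c and Ccnd2 cross it.

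**Figure D4:**
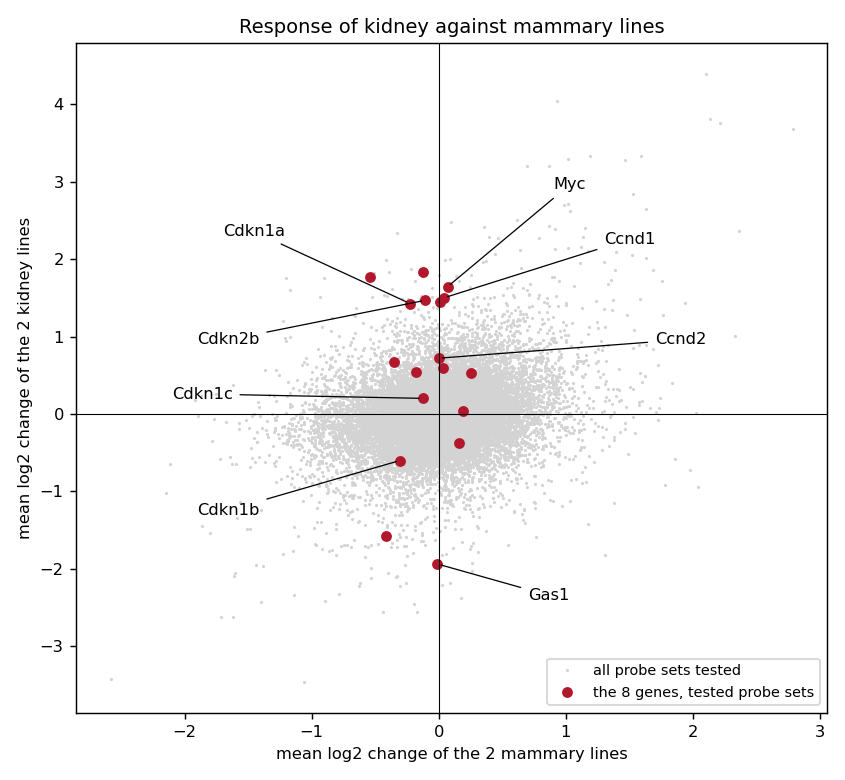
Mean log2 change of the 2 kidney lines (vertical axis) against that of the 2 mammary lines (horizontal axis) for all 27022 tested probe sets (grey) and the 18 of the 8 genes (red, main probe sets named). Myc, Cdkn2b, Cdkn1a and Ccnd1 lie near 0 for the mammary lines and between 1.43 and 1.64 for the kidney lines, and Gas1 lies at -1.94.

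The resting levels were compared between tissues with the same resting arrays that enter the changes. The kidney minus mammary gap of Myc was -2.17 with an SE of 0.58 at rest (limma adjusted p = 0.617), and after stimulation it was -0.60. For Cdkn1a the gap was -1.23 at rest and 0.43 after stimulation, for Ccnd1 -1.59 and -0.13, and for Gas1 3.89 and 1.97. These resting gaps depend on single lines: that of Gas1 was 1.41 without EpH4, where it is dim, and 6.47 without NMuMG, and without mProx that of Ccnd1 was -0.56 and that of Cdkn1a -0.37. The Myc gap was -1.53 to -2.75 with 1 line left out. For Cdkn2b the gaps were 1.24 and 2.82, but these rest on the dim values of EpH4, without which the resting gap was -2.55. The resting gap of Ccnd2, -1.16, became 0.39 without MCT and 1.41 without NMuMG. Limma called 0 of 27022 probe sets, or 0%, in the resting comparison. Both kidney lines lay above both mammary lines in 2 of the 18, Cdkn1c and Gas1, against 19.2%, and below them in 7, against 16.9%. An unadjusted p under 0.05 was found for 3 of the 18 (Myc, 1 Ccnd1 probe set and Cdkn1c), against 6.29% of all. Cdkn1c entered both counts through its kidney levels alone, so neither is read as a result.

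The rest of the G1 pathway was looked at in 7 gene lists, with 101 genes tested. Limma called 0 of them in the 4-line response and 0 in the kidney against mammary comparison, while 5 had an unadjusted p under 0.05 upwards and 10 downwards in the former and 8 in the latter. Over all genes tested these shares were 6.25%, 5.33% and 6.03%. Of 10 G1 cyclin and kinase genes, 0 had the same direction in all 4 lines. Cdk6, the CDK4 relative, had a mean log2 change of -0.30, the cyclin D3 gene Ccnd3 -0.16, Cdk4 -0.15 and the cyclin E2 gene Ccne2 0.09. The list's median in each line lay between -0.19 and 0.12. The cyclin D1 partner genes therefore did not share the size of its difference in mProx, where Cdk4 was at -0.52 and Cdk6 at 0.14.

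Of the 3 other CDK inhibitor genes, Cdkn2c (p18) and Cdkn3, a CDK-dephosphorylating phosphatase, were below 0 in all 4 lines, with means of -0.42 and -0.35, and Cdkn2d (p19) was at -0.20. Their values in the kidney lines, -0.84 and -0.19 for Cdkn2c and -0.22 and -0.68 for Cdkn2d, were of the opposite sign to those of Cdkn2b, their INK4 relative. On the deposited scale Cdkn3 was at 0.05 in NMuMG. Among 13 pocket protein and E2F genes 2 were lower in all 4 lines, E2f8 (-0.56 ± 0.19, SD, n = 4; limma adjusted p = 0.233) and E2f2 (-0.85 ± 0.74), and Tfdp2, an E2F partner, was above 0 in all 4, at 0.18, though not as deposited. E2f4, a repressor E2F that TGF-β uses at the Myc promoter, had a mean of 0.23.

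Among 16 Myc network genes, Bin1, a Myc-interacting adaptor, was higher in all 4 lines (mean 0.67, with 1.32 in mProx and 0.92 in MCT), and so was Fbxw7, the ubiquitin ligase subunit that marks Myc and cyclin E for degradation (mean 0.48). Mxd4, a Max-binding repressor, and Skp2, the ligase subunit that targets p27, were lower in all 4, with means of -0.29 and -0.28. As deposited, Fbxw7 and Mxd4 kept 1 sign in all 4 lines, Bin1 was at -0.01 in EpH4 and Skp2 at 0.17 in NMuMG. The 20 Myc target genes of ribosome making and metabolism had medians of 0.42 in mProx and 0.16 in MCT. The median was also 0.22 in NMuMG, where Myc was at 0.21, and it was -0.20 in EpH4, where Myc was at -0.07. The medians over all genes were 0.01 in mProx, -0.02 in MCT, 0.05 in NMuMG and -0.0044 in EpH4. The order of the lines depended on the scaling. With median scaling the median of the targets was 0.43 in both mProx and NMuMG, beside 0.02 and 0.17 over all genes. As deposited it was 0.60 in NMuMG, 0.30 in mProx and -0.05 in MCT, beside 0.35, -0.11 and -0.25 over all genes. Rrp9, Ppan and Mybbp1a, all of nucleolar ribosome assembly, had means of 0.39, 0.38 and 0.33, with 0.99, 0.89 and 0.94 in mProx, and Bop1 had 0.10. None of the 20 genes was past 2-fold in any line.

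Of 18 growth arrest and antiproliferative genes, Klf10, a TGF-β-induced repressor, was higher in all 4 lines (mean 0.45) and Dab2, an endocytic adaptor, lower in all 4 (mean -0.36), neither of which held in every line as deposited. Gadd45a, a stress-induced growth arrest gene, was at 1.499 in mProx, 1.32 in MCT, 1.22 in NMuMG and -0.14 in EpH4. Gadd45g was at 1.85 in MCT, 0.47 in mProx, 0.54 in NMuMG and -0.49 in EpH4. The S phase and mitosis genes had a median below 0 in both kidney lines (-0.21 in mProx and -0.24 in MCT) and in EpH4 (-0.37), and one of 0.03 in NMuMG. Of these 21 genes, 7 were lower and 0 higher in all 4 lines, or 33.3% and 0%, against 9.21% and 10.4% of all 12697 genes tested. On the deposited scale the count was 3, or 14.3%, and with median scaling 4, or 19%, against 8.55% and 6.89% of all genes. Plk1, a mitotic kinase, had a mean of -0.50, Tyms, thymidylate synthase, -0.47, Mki67, the proliferation marker, -0.39, and Rrm1, a ribonucleotide reductase subunit, -0.38. Tyms was at -0.55 and Mki67 at -0.69 in mProx, where Myc was at 1.72 and Ccnd1 at 2.71. As deposited, Mki67 was at 0.26 in NMuMG, while Plk1, Tyms and Rrm1 were below 0 in all 4 lines. Tyms was dim on both EpH4 arrays, at 5.13 and 4.49, and on stimulated NMuMG, at 5.24, so little can be read from its values in these lines.

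**Figure D5:**
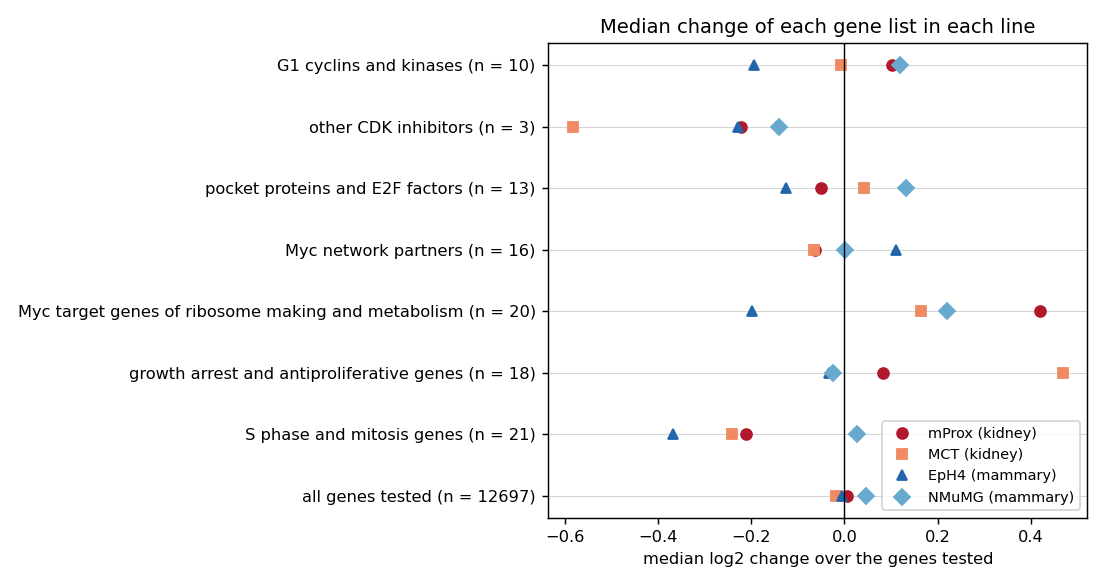
Median log2 change (horizontal axis) of each pathway list (rows, with the number of genes tested) in each line, with all genes in the bottom row. The Myc targets are at 0.42 in mProx and -0.20 in EpH4, and the S phase and mitosis genes are below 0 in all lines but NMuMG, relative to the scaling used.

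The genes most like each member were ranked by Pearson correlation of level over the 8 arrays among 12689 other genes. The 8 arrays are 4 lines measured in pairs, so differences between lines fill most of each value. For Myc they were Bnip2 (r = 0.992), Tmem33 (0.981) and the nucleolar gene Nop16 (0.975). For Cdkn2b they were Slc12a4 (0.991), Plaa (0.990) and the collagen chain gene Col5a1 (0.990), and for Cdkn1a Prr32 (0.958), Cdc34 (0.956), a ubiquitin-conjugating enzyme of the G1 to S transition, and Gm11517 (0.953). For Ccnd1 they were Trim60 (0.973), Ccng1 (0.966) and Cpne8 (0.964), for Ccnd2 Decr1 (0.984), Irf2bp2 (0.984) and Rbm26 (0.982), and for Gas1 Tent5a (0.988), Rcan2 (0.984) and Pkp4 (0.984). Cdkn1b was most like Zfand5 (0.974), Tsc22d3 (0.971), a glucocorticoid-induced gene, and Akap8l (0.967). Cdkn1c, dim on 4 arrays, was most like Wdr35 (0.988), Msh3 (0.980) and Lrr1 (0.979).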

How the data were processed

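The authors deposited 1 intensity per probe set and array on a linear scale for 45101 probe sets on 8 arrays, made with MAS5 per the submitters' processing notes. For its version, scaling target and genome build, the labels and headers read here give nothing.

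The 64 control probe sets were left out, 10.6 (the 25th percentile of positive signals) was added before log2, and values were quantile-normalized because the arrays' medians differed by 0.43. This removes overall shifts between arrays and understates changes of dim genes. The 27022 probe sets with a mean level in the upper part of the scale (from the 40th percentile, 5.27) went into linear models in R 4.3.3 with limma 3.58.1 (eBayes with a trend), and Benjamini-Hochberg adjustment covered all of them at a threshold of 0.05. The cell line was the block in tests of a response. Arrays of a line deviated together, at r = 0.762 to 0.887. On simulated data the fit of the 4-line response recovered 27.5% of log2 changes of 1 and 86% of those of 2. The kidney minus mammary fit of changes recovered 0% of differences of 1 or 2 and 68% of those of 4. For resting levels these shares were 0%, 0% and 92.5%, but that simulation held no differences between lines of a tissue. Such differences make up the spread in the real resting test, so 92.5% does not show what that test can recover. A difference of 2 or less that was not called is therefore not read as absent, nor is a resting difference of any size. The number of arrays limits the precision. Since lines are the replicates, a p reflects spread among 4 lines and not among repeat cultures.

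A gene is described by its brightest tested probe set, avoiding _s_at and _x_at ones. Of each pathway list up to 4 genes are named, by size of the mean change, those with 1 direction in all lines first. Symbols came from the platform annotation, and all 8 matched GRCm38.p6 by Entrez identifier. Members, lists and tests were chosen with earlier results of these data known. Alternatives were other scalings, offsets of 1 and 32, no filter, no trend, 1 probe set per gene, no block, and leaving out each line.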

Additional observations from a re-analysis of the deposited data

Results flagged for a closer look

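Of 51 sets of 4 values checked for a value far from the other 3, 4 held one, and chance gives about 1 in 20. They were the stimulated Cdkn2b level of EpH4, at 3.73, the Ccnd1 change of mProx, at 2.71, the Mxd4 change of NMuMG, at -0.84, and the Gadd45a change of EpH4, at -0.14. Opposite signs in both kidney and both mammary lines were found for both Cdkn1a probe sets, with kidney minus mammary differences of 1.65 and 2.31, and for the dim Ccnd2 probe set 1416124_at, with 1.03. For these differences limma's adjusted p was 0.597, 0.456 and 0.917, so none passed the test. For the brighter Cdkn1a probe set the EpH4 change was only -0.01, and it was 0.05 with median scaling. The Ccnd2 probe set was dim in MCT and EpH4, with deposited signals of 0.8 and 1.6 in MCT and 9.4 and 1.9 in EpH4. Its NMuMG value turns positive on the deposited scale.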

How the results depend on the processing

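Only the main probe set of each member was followed through all alternatives. These values kept their sign in the response and in the kidney against mammary difference under all alternatives run, except those of Cdkn1c. Cdkn1c left the filter under an offset of 1 and without mProx or MCT. Its response was -0.049 as deposited and -0.055 to 0.24 with a line left out, and its tissue difference -0.086 to 0.75. Resting gaps with a line left out were -2.55 to 5.11 for Cdkn2b and -3.69 to 1.41 for Ccnd2, with 0.39 without MCT. As deposited, limma called 417 probe sets in the response, 36 in the difference and 11 at rest, against 0 each. Among the members these included Myc (adjusted p = 0.0108), Ccnd1 (0.00486) and Gas1 (0.00569) in the response and Gas1 (0.0245) in the difference. The cause was not tested. Adjusted p over the alternatives ran from 0.0108 to 1.00 for the Myc response and from 0.0247 to 1.00 for its tissue difference. The response count was 15 with median scaling, 1 with an offset of 1 and 5 with an offset of 32. With lines left out, counts were 0 to 18 in the response, 18 being without EpH4, and 0 to 69 in the difference, 28 being without mProx and 69 without MCT. With no replicate block limma called 0 and 0, counts that could not fall below the 0 of the main setting. At an unadjusted limma p under 0.05 were 218 and 73 probe sets, against 2969 and 1486 with the block. Probe sets past 2-fold in EpH4, 817 in the main setting, were 1419 with an offset of 1 and 253 with one of 32. The latter gave 755 in mProx, 817 in MCT and 992 in NMuMG, against 1466, 1518 and 1779. The share of 2-fold calls that were higher was 47.9% and as deposited 17.5% in EpH4, 51.1% and 35.4% in mProx, 51.9% and 27.9% in MCT, and 46.6% and 77.5% in NMuMG. Signals near the bottom of the scale limit what can be said of Cdkn2b and Gas1 in EpH4 and of Cdkn1c in both mammary lines.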
